A study of Mus musculus with 10 samples.

Results

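The 6 libraries described here are the Elongin A libraries of a 10-library Bru-seq series in mouse embryonic stem cells, set against each other by replicate number: the 3 libraries numbered 1 against the 3 numbered 2. Each side holds 1 library of each of 3 genotypes, EloA WT, EloAK754M edited and EloAK754R edited, so every number is compared within its genotype and the genotypes serve as the 3 paired observations. Bru-seq labels RNA made during a short pulse with bromouridine, here 2 mM for 10 min, pulls the labelled RNA down with an antibody and sequences it, and the intronic reads used here follow transcription rather than stored mRNA. The other 4 libraries of the series, CJ7 wild type and Eed null, come in the table as 1 pooled column each and have no replicate number to compare.

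The K754M and K754R lines carry a methionine or an arginine in place of a lysine of Elongin A, a subunit of the Elongin transcription elongation factor and a substrate of the Polycomb Repressive Complex 2 methyltransferase. The labels give the cell line background as CCE28 for EloA WT and as CJ7 for both edited lines, and do not say how many clones each line stands for. All groups share medium with serum, LIF and the 2i inhibitors PD0325901 at 1 µM, which blocks MEK, and CHIR99021 at 3 µM, which blocks GSK3. The growth protocol names fibroblast feeders removed by a plating step, while the extraction protocol names feeder-free dishes. No label says that a replicate number marks a shared culture, day or library batch, nor that replicates came from separate cultures, so the p-values below measure only the spread between these libraries.

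Cells sense oxygen through prolyl hydroxylases of the EGLN family, which mark the HIF alpha subunits for destruction by the VHL ubiquitin ligase while oxygen is present. When oxygen or the enzymes' cofactors run short, HIF accumulates and binds promoters at a short core motif, raising genes for glucose uptake, glycolysis, lactate export, mitophagy, collagen hydroxylation and vessel growth. Stem cells in culture run much of their energy supply through glycolysis, and their immediate surroundings depend on density, medium depth and handling. The endoplasmic reticulum chaperones, ERK feedback genes and cholesterol synthesis genes are other programmes known to follow nutrients, growth factors and lipids in the medium.

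Transcription of oxygen-regulated and glycolytic genes was lower in replicate 2 than in replicate 1 in most members and in all 3 genotypes. The chaperone gene Hspa5, the ATP synthase genes Atp5b and Atp5a1, and a group of repeat-associated gene models were higher in replicate 2 in all 3 genotypes. Reads over genes that are otherwise nearly silent were also more frequent in every replicate 2 library. Differences are given as replicate 2 minus replicate 1 on log2(RPKM + 0.1), where RPKM is the depth- and length-scaled count of intronic reads, with the SD over the 3 genotypes.

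Each gene was tested in 2 ways. The limma fit on log2(RPKM + 0.1), with genotype as a block and Benjamini-Hochberg adjustment, covered 15161 genes whose mean reached 0.1 RPKM and passed 2 genes (0.0132%) as higher in replicate 2 and 0 (0.0%) as lower at an adjusted p under 0.05. Both, the olfactory receptor genes Olfr492 and Olfr1410, rest on 0 reads in every replicate 1 library and on 1 or 2 reads in each replicate 2 library. At an unadjusted p under 0.05 the same fit had 1198 genes (7.9%) higher and 1924 (12.7%) lower, 20.6% together. The limma-voom fit, which weights each value by the number of reads recovered from the RPKM steps, called 516 of 15097 genes (3.42%) higher and 828 (5.48%) lower, or 8.9% in either direction. Recovered intronic reads ran from 26372004 to 39197950 per library. The voom calls used below come from another weighting of the same libraries and add no replication. The voom fit set no minimum of reads, and 3488 of its genes averaged under 50. Apart from the 2 olfactory receptor genes, no gene named below passed the limma fit over the 15161 genes. With 3 pairs, an exact sign-flip permutation test of a single gene cannot go below p = 0.25.

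Some libraries stand apart. Genes below the 0.1 RPKM mean but not at 0 throughout, of which 8245 had recoverable reads, held 0.888% of the reads in EloA WT replicate 1 and 2.20% in replicate 2. The same genes held 0.969% and 5.68% in the K754M libraries, and 1.07% and 2.74% in the K754R libraries. K754M replicate 2 was the highest, and all 3 replicate 2 libraries lay above all 3 replicate 1 libraries. This group of genes was defined after the values had been seen. Voom counts of the gene lists are therefore also given without the K754M pair. Over all genes, voom called 3.09% higher and 6.18% lower without that pair. It called 3.53% and 3.1% without the EloA WT pair, and 2.77% and 4.38% without the K754R pair. Stem cell markers were transcribed in every library: the 5 measured of 6 stem cell markers, among them Pou5f1, Nanog and Zfp42, summed to between 114 and 154 RPKM in each library, and Tceb3, which encodes Elongin A, lay between 1.12 and 2.03 RPKM.

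The hypoxia response list held 46 tested genes of 49, with 3 below the filter. Its median difference was -0.51 in EloA WT, -0.14 in K754M and -0.45 in K754R, beside -0.08, -0.00 and 0.00 for all genes tested. Of the 46 genes, 30 were lower in replicate 2 in all 3 genotypes, against 26.2% of all genes, and 0 were higher in all 3, against 19.7%. This and the other lists were chosen with earlier results of these data known, so their counts beside all genes are descriptions and not tests. In 16 genes every replicate 2 value lay below every replicate 1 value, a pattern seen in 8.02% of all genes. The voom fit called 19 of the 46 lower (41.3%, beside 5.48% of all genes) and 0 higher. The limma fit on RPKM called 0, with 22 lower at an unadjusted p under 0.05. Without the K754M pair, voom called 23 lower and 0 higher, and the median of the mean differences was -0.50, beside -0.31 with it. Without the EloA WT pair it called 18 lower and 1 higher, and without the K754R pair 14 lower and 0 higher.

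The glycolytic list held 19 genes, all tested. Its median was -0.61 in EloA WT, -0.43 in K754M and -0.56 in K754R. Lower values in replicate 2 in all 3 genotypes were found in 12 genes, and 1 gene, Eno3, was higher in all 3. Voom called 10 of 19 lower (52.6%, beside 5.48% of all genes) and 0 higher. It called 10 lower without the K754M pair, 10 without the EloA WT pair, and 9 lower with 1 higher without the K754R pair. The limma fit on RPKM called 0, with 10 lower at an unadjusted p under 0.05.

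**Figure D1:**
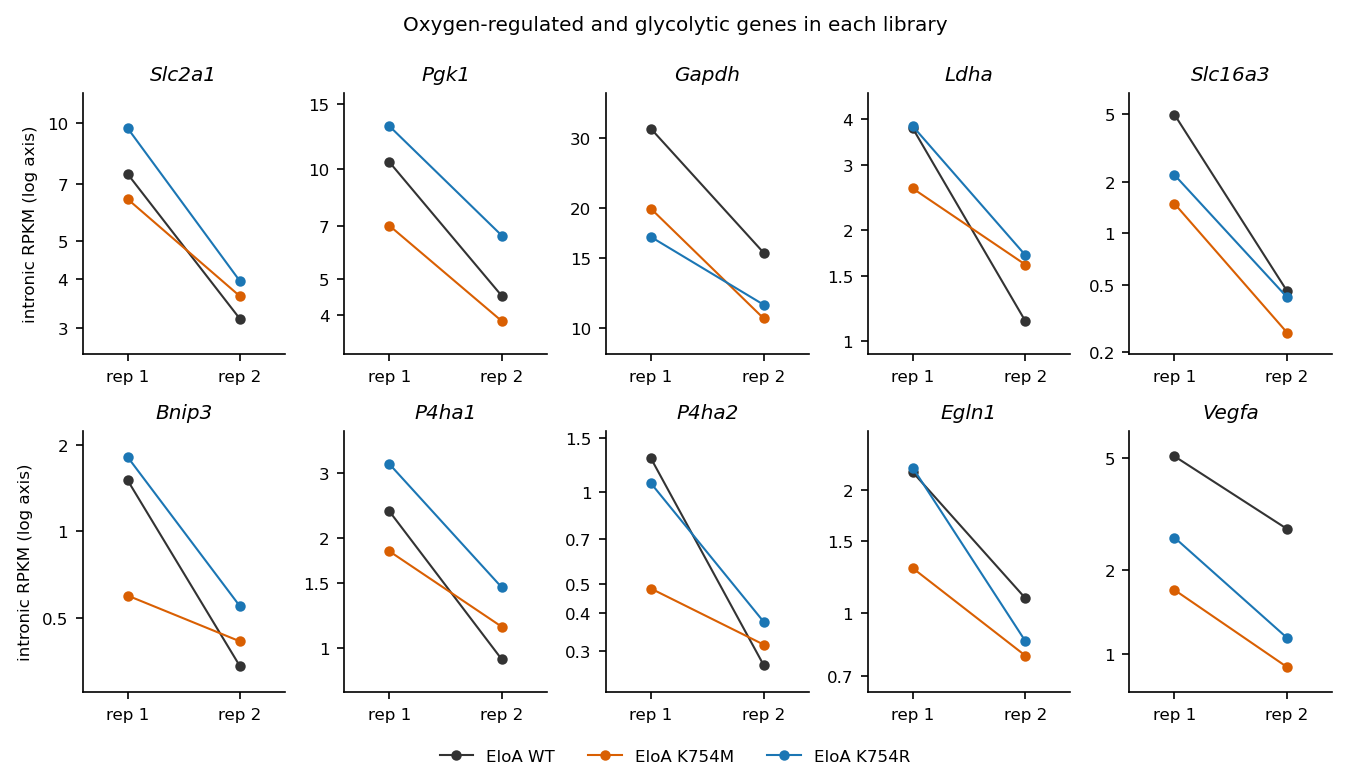
Intronic RPKM (log axis, its range set per gene) of 10 oxygen-regulated or glycolytic genes in replicate 1 and replicate 2, 1 line per genotype and 1 point per library. Every line runs downward, from 4.99 to 0.460 RPKM for Slc16a3 in EloA WT and from 10.4 to 4.51 for Pgk1.

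Promoters of the list members were searched for ACGTG, a form of the core that HIF is known to bind. The form GCGTG was not searched over the lists. RefSeq promoter windows of 300 bases (GRCm38.p6, a later build than the mm9 of the deposited table) were searched for the 5-letter core ACGTG on both strands, and a CACGTG palindrome counts once per strand. The core stood in 19.6% of 32851 windows of all genes and in 25.0% of the 12311 windows of genes tested here. Of 53 windows found for 37 hypoxia list genes, 50.9% held it, as did 42.9% of 28 windows for 18 glycolytic genes and 18.5% of 27 windows for 25 respiratory chain genes. The hypoxia list was assembled from known HIF targets, so its share is a description of the list. The letters ACGTG were absent on both strands from the window of Pfkl and from all 3 windows of Eno1, glycolytic genes described below. The Pfkl window and all 3 Eno1 windows do hold GCGTG, read on either strand. A match does not show that a factor was bound in these cells, and its absence says only that these letters are not in the window. Shown are the windows of the 4 genes of both oxygen lists with the largest differences among those that passed the voom threshold without overlap of the replicates. Capitals mark the core. The Slc16a3 window lies at chr11:120948817-120949116, plus strand, that of Bnip3 at chr7:138909457-138909756, minus strand, that of P4ha2 at chr11:54100674-54100973, plus strand, and the first of a pair for Ldha at chr7:46845554-46845853, plus strand.
Slc16a3: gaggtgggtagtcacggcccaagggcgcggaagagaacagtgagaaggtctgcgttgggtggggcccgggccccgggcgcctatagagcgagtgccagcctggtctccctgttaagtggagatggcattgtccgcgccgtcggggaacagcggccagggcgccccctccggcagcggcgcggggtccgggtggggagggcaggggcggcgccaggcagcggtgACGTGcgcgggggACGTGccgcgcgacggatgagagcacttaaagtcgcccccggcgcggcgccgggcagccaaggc
Bnip3: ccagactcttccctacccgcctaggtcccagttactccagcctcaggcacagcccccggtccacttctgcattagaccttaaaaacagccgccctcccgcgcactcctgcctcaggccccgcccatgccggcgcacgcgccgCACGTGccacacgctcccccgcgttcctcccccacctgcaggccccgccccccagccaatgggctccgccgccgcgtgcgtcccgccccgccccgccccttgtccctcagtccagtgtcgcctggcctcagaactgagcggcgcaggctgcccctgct
P4ha2: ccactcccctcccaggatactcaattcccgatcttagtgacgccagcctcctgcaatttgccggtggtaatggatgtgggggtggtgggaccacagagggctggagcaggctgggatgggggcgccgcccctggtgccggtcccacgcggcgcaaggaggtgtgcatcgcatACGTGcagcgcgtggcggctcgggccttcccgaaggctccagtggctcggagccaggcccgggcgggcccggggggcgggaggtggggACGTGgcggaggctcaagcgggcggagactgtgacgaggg
Ldha: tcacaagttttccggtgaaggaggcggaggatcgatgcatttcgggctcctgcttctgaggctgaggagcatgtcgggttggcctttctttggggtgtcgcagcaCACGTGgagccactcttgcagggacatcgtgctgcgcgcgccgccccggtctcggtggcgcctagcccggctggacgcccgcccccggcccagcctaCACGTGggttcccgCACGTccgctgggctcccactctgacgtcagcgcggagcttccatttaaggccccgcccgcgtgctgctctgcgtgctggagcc

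Slc16a3, whose window above holds 2 cores, encodes the lactate exporter MCT4 and had the largest difference of either oxygen list. Its intronic RPKM was 4.99 in EloA WT replicate 1 and 0.460 in replicate 2, 1.50 and 0.262 in K754M, and 2.21 and 0.423 in K754R. The mean difference was -2.49 ± 0.60 (SD, n = 3 genotypes; limma adjusted p = 0.14, limma-voom adjusted p = 8.8e-05), on 28 to 681 reads per library. All replicate 2 values lay below all replicate 1 values. Ldha, the lactate dehydrogenase subunit that makes lactate from pyruvate and the gene with 5 matches in its first window, was measured at 3.77 and 1.14 RPKM in EloA WT, 2.59 and 1.61 in K754M and 3.82 and 1.71 in K754R. Its difference was -1.14 ± 0.50 (limma-voom adjusted p = 0.00185), again without overlap, and EloA WT replicate 2 was the lowest library.

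Glucose enters through Slc2a1 (GLUT1), the main constitutive glucose carrier. It read 7.42 and 3.15 RPKM in EloA WT, 6.40 and 3.61 in K754M, and 9.72 and 3.94 in K754R, with no overlap between replicate numbers. The difference was -1.10 ± 0.25 (limma adjusted p = 0.14, limma-voom adjusted p = 0.000213). The related carrier Slc2a3 differed less, by -0.30 ± 0.16 (limma-voom adjusted p = 0.0422). Hk2, the hexokinase that traps glucose in the cell, did not share the pattern: its 6 values ran from 6.41 to 10.7 RPKM and its difference was -0.04 ± 0.22 (limma-voom adjusted p = 0.711).

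Several enzymes of the later steps of glycolysis, which yield ATP, were lower in replicate 2 in each genotype, among them Gapdh, Pgk1, Pgam1, Eno1 and Pkm2. Pgk1, phosphoglycerate kinase, read 10.4 and 4.51 RPKM in EloA WT, 7.01 and 3.85 in K754M and 13.1 and 6.58 in K754R, a difference of -1.01 ± 0.17 (limma adjusted p = 0.14, limma-voom adjusted p = 0.000328). Eno1, enolase, read 15.8 and 9.15, 17.6 and 10.6, and 12.5 and 7.61 RPKM in the same order of genotypes, a difference of -0.74 ± 0.04 (limma-voom adjusted p = 0.000898). For both genes each replicate 1 library lay above each replicate 2 library. Pkm2, the pyruvate kinase gene, differed by -0.79 ± 0.16, Gapdh by -0.83 ± 0.24, Pgam1 by -0.64 ± 0.24, and the upstream enzymes Gpi1 by -0.63 ± 0.21, Pfkl by -0.99 ± 0.40 and Pfkp by -0.55 ± 0.02. All 6 passed the voom threshold. Aldolase did not follow: Aldoa read 20.5 and 23.5 RPKM in EloA WT, 15.0 and 26.2 in K754M, and 15.6 and 12.4 in K754R, with opposite signs between genotypes.

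The oxygen sensor Egln1 (PHD2), itself a HIF target that limits the response, read 2.21 and 1.09 RPKM in EloA WT, 1.29 and 0.786 in K754M, and 2.27 and 0.854 in K754R. Its difference was -0.97 ± 0.33 (limma-voom adjusted p = 0.000898), without overlap. The sensor Egln3 was lower in EloA WT and K754R but not in K754M, where it read 0.0855 and 0.140 RPKM. Hif1a itself, which is controlled chiefly at the protein level, differed by -0.25 ± 0.16 (limma-voom adjusted p = 0.0854), and Vhl by -0.28 ± 0.21 (limma-voom adjusted p = 0.279).

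Among targets outside metabolism, Bnip3, a mitophagy receptor on the outer mitochondrial membrane, read 1.51 and 0.340 RPKM in EloA WT, 0.599 and 0.415 in K754M and 1.81 and 0.549 in K754R. The difference was -1.29 ± 0.75 (limma-voom adjusted p = 0.00245), and K754M replicate 1 was the lowest of the replicate 1 libraries. The collagen prolyl hydroxylase gene P4ha2 followed the same order, with 1.29 and 0.271, 0.482 and 0.316, and 1.07 and 0.376 RPKM and a difference of -1.23 ± 0.71 (limma-voom adjusted p = 0.00338). P4ha1 differed by -0.99 ± 0.32 and the lysyl hydroxylase gene Plod2 by -0.57 ± 0.16, both past the voom threshold. In these 4 genes the replicate numbers did not overlap.

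Vegfa, the vessel growth factor, read 5.06 and 2.79 RPKM in EloA WT, 1.69 and 0.901 in K754M, and 2.60 and 1.14 in K754R. Its difference was -0.93 ± 0.16 (limma adjusted p = 0.14, limma-voom adjusted p = 0.00199), nearly the same in each genotype, but EloA WT replicate 2 lay above both mutant replicate 1 libraries, so the numbers overlapped. The histone demethylase gene Kdm4b differed by -0.67 ± 0.08 (limma-voom adjusted p = 0.00124), while the related Kdm3a differed by -0.02 ± 0.12 (limma-voom adjusted p = 0.844). Adm differed by -1.24 ± 0.38 on 0 to 5 reads per library and did not pass in either fit. The only hypoxia list gene with a mean difference above 0.5 was Mif, at 16.2 and 16.3 RPKM in EloA WT, 10.1 and 32.2 in K754M and 11.9 and 11.7 in K754R, so that only K754M replicate 2 stood apart.

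The respiratory chain list had a median of 0.06 in EloA WT, 0.11 in K754M and 0.29 in K754R, over 36 genes. Of these, 16 were higher in replicate 2 in all 3 genotypes (44.4%, beside 19.7% of all genes) and 3 were lower. Voom called 2 higher (5.56%, beside 3.42% of all genes) and 0 lower. Without the K754M pair, and also without the EloA WT pair, voom called 5 higher and 0 lower, and without the K754R pair 2 higher and 1 lower. Atp5b, the catalytic beta subunit of ATP synthase, read 31.2 and 49.0 RPKM in EloA WT, 26.5 and 66.5 in K754M, and 22.9 and 33.6 in K754R, a difference of 0.84 ± 0.42 (limma adjusted p = 0.154, limma-voom adjusted p = 0.00362). Atp5a1, the alpha subunit, differed by 0.66 ± 0.31 (limma-voom adjusted p = 0.00626). Every replicate 2 value of both genes lay above every replicate 1 value, as in 5.77% of all genes.

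**Figure D2:**
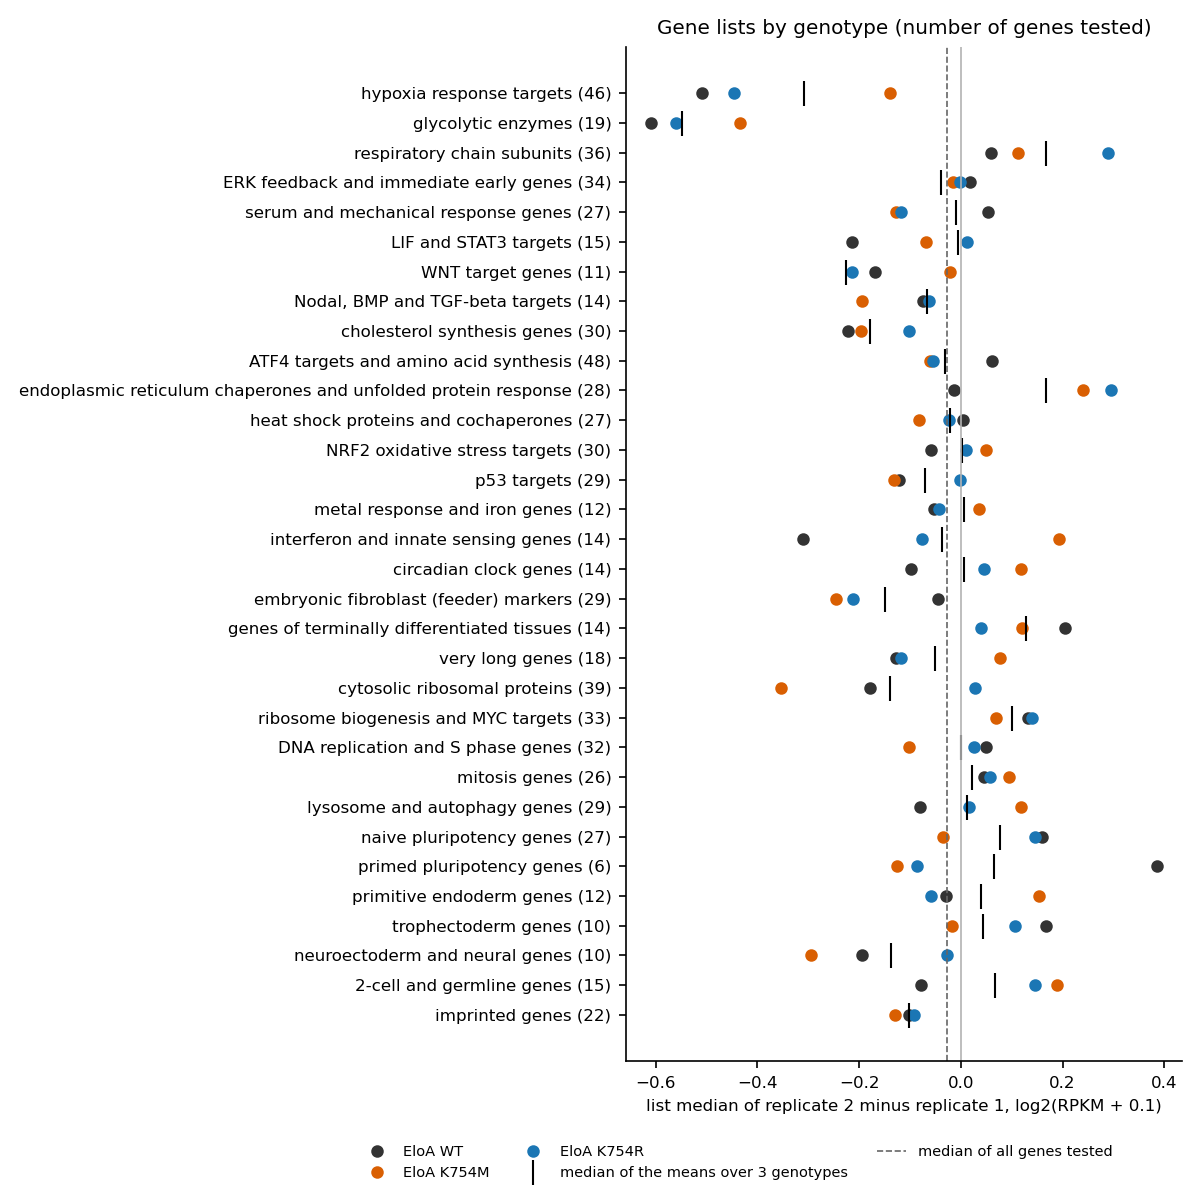
Median over each gene list of replicate 2 minus replicate 1 on log2(RPKM + 0.1), 1 dot per genotype and a tick for the median of the mean over the 3 genotypes, with the number of genes tested in brackets and a dashed line at the median of all genes. The hypoxia and glycolysis lists lie farthest left, with ticks at -0.31 and -0.55, and the respiratory chain and endoplasmic reticulum lists have ticks at 0.17.

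Growth factor programmes showed no common direction. The 34 tested ERK feedback and immediate early genes of 44 listed had a median of 0.02 in EloA WT, -0.02 in K754M and -0.00 in K754R. In all 3 genotypes, 7 were higher (20.6%, beside 19.7% of all genes) and 10 lower (29.4%, beside 26.2%). Voom called 2 higher (5.88%) and 1 lower (2.94%), beside 3.42% and 5.48% of all genes. It called 5 and 2 without the K754M pair and 2 each way without the K754R pair. Spry4, a feedback inhibitor of receptor tyrosine kinase signalling, read 0.776 and 2.60 RPKM in EloA WT, 3.68 and 4.91 in K754M, and 3.02 and 6.48 in K754R, a difference of 1.04 ± 0.61 (limma-voom adjusted p = 0.00995). Within each genotype replicate 2 was higher, but EloA WT replicate 2 lay below both mutant replicate 1 libraries. The ETS factor gene Etv1 was also higher, by 0.87 ± 0.39 (limma-voom adjusted p = 0.00305), and Spsb1 was lower, by -0.59 ± 0.16 (limma-voom adjusted p = 0.00397). Myc read 0.297 and 0.703, 0.568 and 1.05, and 0.462 and 0.811 RPKM, a difference of 0.83 ± 0.17 on 13 to 40 reads per library (limma-voom adjusted p = 0.0798).

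LIF and STAT3 targets, 15 tested, split as well, with 1 voom call higher (6.67%) and 3 lower (20.0%), beside 3.42% and 5.48% of all genes. The counts were the same without the K754M pair, and 1 higher and 2 lower without the K754R pair. Socs3, the feedback inhibitor of LIF signalling, read 4.70 and 1.99 RPKM in EloA WT, 3.52 and 1.44 in K754M and 2.74 and 2.00 in K754R, a difference of -0.96 ± 0.45 (limma-voom adjusted p = 0.0185) without overlap. Mcl1, a survival gene, differed by -0.51 ± 0.16, also without overlap, and Tfcp2l1, a naive pluripotency factor downstream of STAT3, by 0.38 ± 0.12 (limma-voom adjusted p = 0.01). Of 11 WNT targets tested of 20 listed, voom called 1 higher (9.09%) and 2 lower (18.2%), beside 3.42% and 5.48% of all genes. The higher was Axin2 at 0.41 ± 0.19, and the lower were Tcf7 at -0.46 ± 0.14 and Znrf3 at -0.23 ± 0.05. Counts were the same without the K754M pair. They were 0 higher and 2 lower without the K754R pair, and 0 higher and 1 lower without the EloA WT pair. Of 14 tested Nodal, BMP and TGF-beta list genes, voom called Lefty1 and Lefty2 lower (14.3%, beside 5.48% of all genes) and 0 higher. Without the K754M pair this list had 1 call higher and 2 lower, and without the K754R pair 0 higher and 1 lower. Of 27 serum and mechanical response genes, voom called Ankrd1 and Amotl1 lower (7.41%, beside 5.48% of all genes) and 0 higher. Without the K754M pair it called 2 each way, without the K754R pair 1 each way, and without the EloA WT pair 3 lower.

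Cholesterol synthesis genes had a median of -0.22 in EloA WT, -0.20 in K754M and -0.10 in K754R over 30 genes. Of these, 17 were lower in all 3 genotypes (56.7%, beside 26.2% of all genes) and 2 higher. Voom called 6 lower (20.0%, beside 5.48% of all genes) and 0 higher. Without the K754M pair it called 5 lower, and without either other pair 4. Scd2, a fatty acid desaturase that shares the sterol regulators, read 4.49 and 2.71 RPKM in EloA WT, 3.51 and 1.86 in K754M, and 5.66 and 3.70 in K754R, a difference of -0.73 ± 0.14 (limma-voom adjusted p = 0.00305). Srebf1, which encodes a sterol response factor, differed by -0.43 ± 0.09 and the squalene synthase gene Fdft1 by -0.44 ± 0.19, both past the voom threshold. All 3 genes were lower in replicate 2 within each genotype, and the numbers overlapped across genotypes.

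Among stress programmes, the endoplasmic reticulum chaperones were higher in replicate 2 in part. Of 28 genes of the endoplasmic reticulum chaperone and unfolded protein response list, 10 were higher in all 3 genotypes (35.7%, beside 19.7% of all genes). In the same list 1 was lower in all 3, and voom called 2 higher (7.14%, beside 3.42% of all genes) and 0 lower. The list median was -0.01 in EloA WT, 0.24 in K754M and 0.30 in K754R. Hspa5 (BiP), the main chaperone of the endoplasmic reticulum and a partner of its stress sensors, read 17.0 and 39.1 RPKM in EloA WT, 20.0 and 52.0 in K754M and 14.6 and 24.8 in K754R. Its difference was 1.11 ± 0.31 (limma adjusted p = 0.14, limma-voom adjusted p = 0.0014), with no overlap. Calr, the lectin chaperone calreticulin, differed by 0.51 ± 0.26 (limma-voom adjusted p = 0.032). Voom called 1 gene of this list higher without the K754M pair, 1 without the K754R pair and 4 without the EloA WT pair.

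ATF4 targets had no common direction. Of 48 genes, 7 were higher (14.6%, beside 19.7% of all genes) and 11 lower (22.9%, beside 26.2%) in all 3 genotypes. The 2 voom calls were both lower (4.17%, beside 5.48% of all genes). Voom called 3 each way without the K754M pair and 1 higher and 2 lower without the EloA WT pair. The 2 called over all pairs were Vegfa, which is also a hypoxia target, and Stc2. Stc2 read 5.68 and 3.33 RPKM in EloA WT, 0.232 and 0.227 in K754M, and 0.820 and 0.261 in K754R. The heat shock list of 27 genes had 2 voom calls, both higher (7.41%, beside 3.42% of all genes). It had 2 higher also without the K754M pair and 1 each way without the EloA WT pair. Without the K754R pair it had 1 higher and 2 lower. Called over all pairs was the cytosolic chaperone Hsp90ab1 at 0.62 ± 0.38 (limma-voom adjusted p = 0.0111). The NRF2 list of 30 genes had 6 voom calls higher (20.0%) and 1 lower (3.33%), beside 3.42% and 5.48% of all genes. It had 1 higher and 2 lower without the K754M pair, 4 and 0 without the EloA WT pair, and 2 and 1 without the K754R pair. Hmox1, heme oxygenase, read 2.89 and 4.59, 1.92 and 2.99, and 1.41 and 1.86 RPKM, a difference of 0.55 ± 0.15 (limma-voom adjusted p = 0.038). Gpx1, a glutathione peroxidase, read 37.6 and 60.0, 30.1 and 102, and 26.2 and 29.6 RPKM, so that K754M replicate 2 stood highest. p53 targets, 29 tested, had 1 voom call higher (3.45%, beside 3.42% of all genes) and 0 lower, also with any 1 pair left out. Cdkn1a differed by -0.38 ± 0.13 (limma-voom adjusted p = 0.0662). The 12 metal response and iron genes and the 14 circadian genes had 0 voom calls over all pairs, and the former had 2 higher without the EloA WT pair and 1 lower without the K754M pair.

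Pluripotency genes differed in both directions. Voom called 4 of 27 naive pluripotency genes higher and 4 lower (14.8% each way, beside 3.42% and 5.48% of all genes). It called 3 each way without the K754M pair, and 4 higher and 1 lower without the EloA WT pair. Klf2, a naive factor, read 31.4 and 18.8 RPKM in EloA WT, 26.9 and 15.0 in K754M, and 23.4 and 15.4 in K754R, a difference of -0.72 ± 0.12 (limma-voom adjusted p = 0.0102) without overlap. Fgf4, a growth factor that drives ERK signalling in stem cells where MEK is not blocked, differed by -0.64 ± 0.35 (limma-voom adjusted p = 0.0224). Pou5f1, the core factor OCT4, read 19.2 and 24.7, 20.5 and 36.5, and 15.0 and 19.8 RPKM, a difference of 0.53 ± 0.26 (limma-voom adjusted p = 0.0223). Lin28a, an RNA-binding regulator of let-7, differed by 0.67 ± 0.13 (limma-voom adjusted p = 0.0064), while Nanog differed by 0.12 ± 0.06 (limma-voom adjusted p = 0.425).

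**Figure D3:**
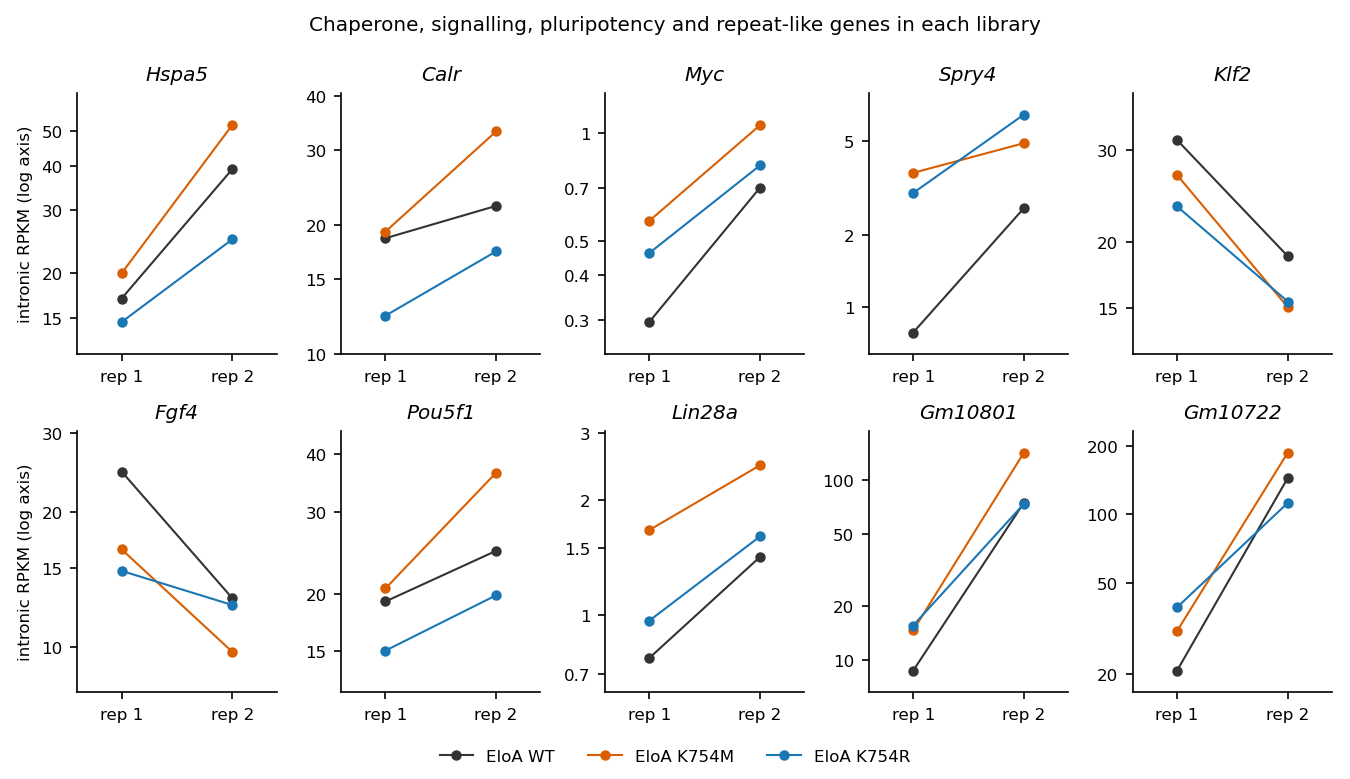
Intronic RPKM (log axis, its range set per gene) of 10 genes outside the oxygen lists in replicate 1 and replicate 2, 1 line per genotype and 1 point per library. Hspa5, Calr, Myc, Spry4, Pou5f1, Lin28a, Gm10801 and Gm10722 run upward in each genotype and Klf2 and Fgf4 downward.

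Part of the fibroblast feeder markers were lower in replicate 2. In the list of 29 tested genes of 38, 15 were lower in all 3 genotypes (51.7%, beside 26.2% of all genes) and 2 higher. Voom called 8 lower (27.6%, beside 5.48% of all genes) and 0 higher, or 7 without the K754M pair and 5 without the K754R pair. The list median was -0.04 in EloA WT, -0.25 in K754M and -0.21 in K754R, beside -0.08, -0.00 and 0.00 for all genes tested. Over the genotypes it was -0.15, and -0.25 without the EloA WT pair. The tested genes of the list summed to 33.6 and 35.8 RPKM in EloA WT, 48.0 and 41.9 in K754M, and 49.1 and 44.7 in K754R, so the sum was higher in replicate 2 in EloA WT and lower in both edited lines. Prrx1, a mesenchymal transcription factor, read 0.676 and 0.423 RPKM in EloA WT, 1.00 and 0.546 in K754M, and 1.18 and 0.625 in K754R, a difference of -0.72 ± 0.13 (limma-voom adjusted p = 0.00124) without overlap. Acta2, smooth muscle actin, differed by -0.66 ± 0.30 and the collagen gene Col1a1 by -0.55 ± 0.25. The 11 defining feeder markers summed to 3.45 and 2.42 RPKM in EloA WT, 4.75 and 3.50 in K754M, and 5.50 and 3.56 in K754R, and 8 of the 11 passed the filter. In bulk libraries fewer cells of a type cannot be told apart from less RNA per cell. The part of feeder RNA in the oxygen and lipid results was not tested.

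The 3 feeder markers below the filter went the other way: Dcn, Lum and Fap were higher in replicate 2 in every genotype. Lum, a keratan sulfate proteoglycan gene, read 0 and 0.0120 RPKM in EloA WT, 0.0132 and 0.0904 in K754M, and 0.0120 and 0.0269 in K754R. Of 68 genes of terminally differentiated tissues, 54 lay below the filter, and 49 of these with recoverable reads held 0.00761% and 0.0301% of reads in EloA WT, 0.0109% and 0.100% in K754M, and 0.00796% and 0.0378% in K754R. The ratio of replicate 2 to replicate 1 was 3.95 in EloA WT, 9.18 in K754M and 4.75 in K754R. The neuronal gene Dcx, normally silent in stem cells, read 0.000800 and 0.0199 RPKM in EloA WT, 0 and 0.0858 in K754M, and 0.00190 and 0.0334 in K754R. Over the 8653 genes below the filter but not at 0 throughout, those with no read numbered 2398 and 1321 in EloA WT. They numbered 2677 and 530 in K754M, and 2453 and 845 in K754R, counts not scaled for library depth. These low genes were in each genotype read more in replicate 2, and K754M replicate 2 stood apart most. Of 18 tested very long genes, 17 entered the voom fit, with 1 call higher and 3 lower (17.6%, beside 5.48% of all genes). Tcf4, among the lower, differed by -0.37 ± 0.04 (limma-voom adjusted p = 0.00554). Without the K754M pair voom called 1 higher and 6 lower, without the EloA WT pair 2 and 4, and without the K754R pair 1 and 2.

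A further group was picked out after its values had been seen: Gm10800, Gm10801 and a run of neighbouring gene models on chromosome 9 that starts at Gm10722, 12 models in all of which 11 were tested. Such predicted models lie over repeat sequence related to satellites, share reads with near-identical copies elsewhere, and are each uncertain. All 11 were higher in replicate 2 in every genotype without overlap, and all 11 passed the voom threshold, with mean differences of 1.44 to 2.98. Voom called 11 without the K754M pair and 10 without the EloA WT pair. The limma fit on RPKM called 0 (limma adjusted p from 0.14 to 0.648). Gm10721 rested on 2 to 16 reads per library and Gm11168 on 3 to 66. Gm10801 read 8.75 and 74.8 RPKM in EloA WT, 14.6 and 142 in K754M, and 15.6 and 73.8 in K754R, a difference of 2.86 ± 0.55 (limma-voom adjusted p = 1.29e-05). Gm10722 read 20.7 and 144, 30.8 and 186, and 39.1 and 112 RPKM. The models together took 0.0324% and 0.144% of reads in EloA WT, 0.0462% and 0.174% in K754M, and 0.0532% and 0.114% in K754R.

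How far the replicate differences were shared between genotypes depended on the genes taken. Over all 15161 genes, Pearson correlations across genes of the within-genotype differences were 0.17 for EloA WT with K754M, 0.20 for EloA WT with K754R and 0.15 for K754M with K754R. Among 4977 genes averaging 1000 reads or more they were 0.66, 0.64 and 0.55, and among 3488 genes under 50 reads 0.07, 0.10 and 0.06. Among genes chosen by a mean of at least 2 RPKM, whatever their reads, they were 0.071, 0.082 and 0.0067. Genes are not independent, the values share library depth and base composition, and the correlations are descriptions. Over the 11609 genes averaging 50 reads or more, the share of the sum of squares was 67.1% for genotype, 22.3% for replicate number and 10.6% for the remainder. Without the satellite-like models the replicate share was 21.1%. Over all genes tested the genotype share was lower and the remainder higher. These shares were not adjusted for degrees of freedom. Genotype has more levels than replicate number, so unequal shares would arise without any effect, and their sizes cannot be compared directly. The genotype share also contains the labelled difference in cell line background between EloA WT and the edited lines.

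**Figure D4:**
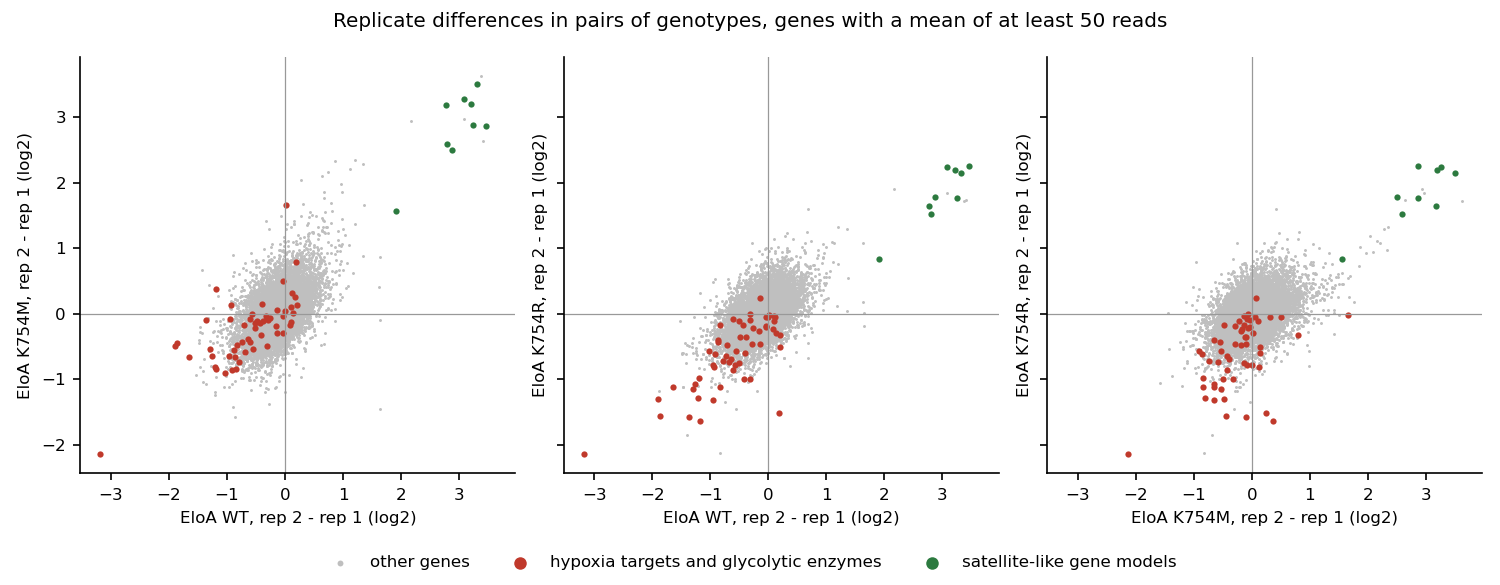
Replicate 2 minus replicate 1 on log2(RPKM + 0.1) in each pair of genotypes, 1 point per gene for the 11609 genes averaging 50 reads or more. Grey points spread along the diagonal (Pearson correlations of 0.55, 0.57 and 0.49 from left to right), hypoxia and glycolysis genes lie mostly at the lower left, and satellite-like gene models at the upper right.

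The differences also went with the base composition of the genes' transcripts. These are spliced sequences, and the GC content of the introns, where the reads lie, was not computed. When the same well covered genes were cut into 5 equal bins of transcript GC content, the median of the mean difference was 0.05 in the lowest bin, -0.00, -0.02 and -0.07 in the next 3, and -0.14 in the highest. From the lowest to the highest bin it went from -0.01 to -0.19 in EloA WT, from 0.04 to -0.10 in K754M and from 0.11 to -0.16 in K754R. The median GC content was 51.5% in the hypoxia list and 54.4% in the glycolytic list, beside 50.6% over all genes tested. Among the 40 hypoxia and 16 glycolytic genes averaging 50 reads or more, the list medians were -0.38 and -0.59, and -0.34 and -0.53 with the GC trend also removed in each genotype. The 5 bins of intron length differed less, with medians between -0.06 and -0.01. By genotype these ran from -0.12 to -0.04 in EloA WT, -0.03 to 0.00 in K754M and -0.07 to 0.04 in K754R. In 5 equal bins of mean RPKM the medians ran from -0.11 to 0.03. The lowest of these bins had medians of -0.14 in EloA WT, 0.19 in K754M and -0.01 in K754R.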

How the data were processed

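Nascent RNA labelled with bromouridine was sequenced in mouse embryonic stem cells. The values are intronic RPKM, deposited by the authors as 1 table with a column per Elongin A library and 1 pooled column each for CJ7 wild type and Eed null. BWA and mm9 are named in the submitters' processing notes, and the counting tool is not given in the sources used here. Columns of other samples numbered 0.

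Genes whose mean reached 0.1 RPKM were fitted with limma 3.58.1 (R 4.3.3, trend) on log2(RPKM + 0.1), with genotype as a block, 2 residual and 2.69 prior degrees of freedom, two-sided, and Benjamini-Hochberg adjustment. Whole reads, within 0.01 read, were recovered from the RPKM steps for 99.97% of 20817 genes with at least 6 values above 0, and fitted with limma's voom. The fits were also run on simulated reads with no genotype difference and no shift in base composition or background. That run does not bear on how many calls in these libraries are right. Named genes were those past the threshold and then the smallest unadjusted p, 10 each way with a difference of at least 0.3 in each genotype and 0.5 RPKM, the 4 (2 in growth, cycle and cell state lists) largest differences of one sign per list, and 6 set genes. Other genes of the lists were named for their role or because their values were seen to go against the list. Members and the 32 lists were chosen with earlier results of these data known. Gene GC content came from GENCODE M21 transcripts, matched for 94.4% of genes.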

Additional observations from a re-analysis of the deposited data

Results flagged for a closer look

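The 14 tested interferon and innate sensing genes had a median of 0.19 in the K754M pair and -0.31 in the EloA WT pair, a gap of 0.50 with opposite signs. The difference between the pairs was not tested. Opposite signs were not specific to this list. The lowest bin of mean RPKM described above, 2322 genes at 0.10 to 0.48 RPKM, had medians of 0.19 in the K754M pair and -0.14 in the EloA WT pair. The list was not compared with genes of matched level, so how much of its gap is shared with weakly transcribed genes was not tested. Voom called 1 gene of this list higher (7.14%, beside 3.42% of all genes) and 0 lower, also with any 1 pair left out. The list is the thinnest of the stress lists, with a median of 78.8 reads per gene. K754M replicate 2 was also the library with the most reads over nearly silent genes, and its part in this gap was not tested.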

How the results depend on the processing

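The limma count of 2 genes on RPKM was 1 at a mean of at least 0.5 RPKM, 1 under quantile normalization, 0 with pseudocount 1, 4 without the genotype block, and 0 to 5 when a genotype pair was left out. It was 1144 (378 higher, 766 lower) over genes averaging 50 or more recovered reads, 1379 (663 higher, 716 lower) with the GC trend removed over such genes, and 1344 (516 higher, 828 lower) with voom. Voom called 1001 without the EloA WT pair (533 higher, 468 lower), 1399 without the K754M pair and 1079 without the K754R pair.

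Of the 32 lists, 24 had a median that moved by more than the spread between genotypes under some alternative. The values of 5 follow. The other 19 had 50 such values, 27 above and 23 below their main median and 14 with another sign, and 13 of the 50 were of the imprinted genes. The hypoxia median of -0.31 was -0.66 with voom without the K754M pair. The glycolytic median of -0.55 was -0.46 with equal library medians and -0.25 with pseudocount 1.

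The ERK and immediate early median of -0.04 was 0.017 at 50 reads, 0.031 at 50 reads with the GC trend also removed, 0.051 with equal library medians, 0.0043 at 0.5 RPKM, 0.047 under quantile normalization, -0.074 with voom, -0.17 with voom without the K754M pair, and -0.14 to -0.0076 when a pair was left out on RPKM. The ATF4 median of -0.03 was 0.059 with equal library medians, -0.12 with voom without the EloA WT pair and -0.10 to -0.010 when a pair was left out. The feeder median of -0.15 was -0.30 with voom without the EloA WT pair. The hypoxia, glycolytic and feeder medians kept their sign in all the alternatives.

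Correlations of the replicate differences (EloA WT with K754M, EloA WT with K754R, K754M with K754R) were 0.55, 0.57 and 0.49 over genes averaging 50 or more reads, 0.51, 0.52 and 0.45 with the GC trend also removed, and 0.32, 0.32 and 0.32 with voom. They were 0.071, 0.082 and 0.0067 at a mean of at least 2 RPKM, 0.17 for the second and 0.080 for the third pair at 0.5 RPKM, and 0.23 and 0.24 for the first pairs with pseudocount 1.

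Same-numbered libraries share only a number in the labels, and each genotype comparison has 2 pairs. With the replicate block, limma calls went from 33 to 227 for K754M against EloA WT, from 527 to 1777 for K754R against EloA WT and from 44 to 355 for K754M against K754R, with all 33, 527 and 44 kept. With equal library medians they were 16, 324 and 68, and 67, 1524 and 436 with the replicate block. Voom gave 343, 1325 and 449, and 2113, 4104 and 2431 with the replicate block. Leaving out each library in turn gave 2 to 52, 1 to 9 and 5 to 62 calls in the same order, and the 1 to 9 for K754R hold whichever of the 6 libraries was left out. The lone library of the shortened genotype is then assumed to vary like the others.

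The sign changed for 2 named genes: the difference of Slc11a2, -0.05, was 0.013 at 50 reads with the GC trend removed, 0.043 with equal medians and 0.031 under quantile normalization, and that of Tfrc, -0.09, was 0.00092 with equal medians. Neither passed a test. The cause of these shifts was not tested. Of the genes in the RPKM fit with recovered reads, 3488 averaged under 50.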

Other observations

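The pooled columns of CJ7 wild type and Eed null, the authors' pooled values with no replicate to compare, place the oxygen genes at several levels. Slc16a3 stood at 0.559 RPKM in pooled CJ7 wild type and 1.20 in pooled Eed null, between the replicate 2 and replicate 1 values of the Elongin A libraries. Slc2a1 stood at 4.05 and 4.25, Pgk1 at 2.73 and 2.87, and Ldha at 2.60 and 3.37. Pgk1 was thus below all 6 Elongin A libraries in both pools. Hspa5 stood at 7.50 and 8.52, below all 6. Gm10801 stood at 0.202 and 0.0186 and Gm10800 at 91.2 and 43.0, while the lowest Elongin A library had 8.75 and 2449.

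Voom called 1 imprinted gene of 22 higher (4.55%) and 3 lower (13.6%), beside 3.42% and 5.48% of all genes. Without the K754M pair it called 1 and 2. Of 10 neuroectoderm and neural genes it called 2 lower (20.0%, beside 5.48% of all genes), with and without that pair. Lysosome and autophagy genes had 3 calls each way among 29 (10.3% each way, beside 3.42% and 5.48% of all genes). They had 1 higher and 4 lower without the K754M pair and 1 each way without the EloA WT pair. Of 33 ribosome biogenesis and MYC target genes, 15 were higher in replicate 2 in all 3 genotypes (45.5%, beside 19.7% of all genes). Voom called 2 higher (6.06%, beside 3.42% of all genes) and 0 lower. It called 4 higher without the K754M pair and 0 without the EloA WT pair. Cytosolic ribosomal protein genes had a median of -0.18 in EloA WT, -0.35 in K754M and 0.03 in K754R. Of 39 such genes, voom called 1 each way (2.56%, beside 3.42% and 5.48% of all genes). It called 1 higher and 0 lower without the K754M pair and 1 higher and 5 lower without the K754R pair. The higher over all pairs was Rpl8 at 0.69 ± 0.41. DNA replication genes had 0 voom calls among 32, also with any 1 pair left out. Neuronal filament genes Nefm and Nefl, found by their small unadjusted p, differed by 0.98 ± 0.17 and 0.84 ± 0.20 (limma-voom adjusted p = 0.0013 and 0.023). The imprinted gene Grb10, a growth factor receptor adaptor, differed by -0.55 ± 0.20 (limma-voom adjusted p = 0.00491), and Eed by 0.35 ± 0.12 (limma-voom adjusted p = 0.0199).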
